A study of Mus musculus with 4 samples.

Results

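The regions described here are H3K27me3 peaks that stood alone: they overlapped no PHF6 peak and no H3K27ac peak, and no other H3K27me3 peak lay within 5 kb of them, edge to edge. On chromosomes 1 to 19, 2657 of 5395 H3K27me3 peaks met this rule (49.2%, 95% exact binomial interval 47.9 to 50.6), out of 5616 H3K27me3 peaks on all chromosomes. They were chosen by called overlap and distance in the deposited lists, measured values of the same libraries described below. They are called isolated unmarked peaks, where "unmarked" means without a called PHF6 or H3K27ac peak. The cells were C57BL/6J pre-B cell leukemia cells that overexpressed BCR-ABL1, a fusion tyrosine kinase, and were null for p19, the tumour suppressor made from the alternative reading frame of the Cdkn2a locus. Chromatin immunoprecipitation and sequencing (ChIP-seq) gave 1 library each for PHF6, H3K27ac and H3K27me3 and 1 input DNA library, all 4 from the same kind of cells with the same genotype. The labels name no treatment and no control genotype, and do not say whether the culture was 1 clone. With 1 library per antibody there is no replicate error, so no difference was tested and no p-value is given. Intervals cover counting error only, and neighbouring peaks are not independent.

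Trimethylation of histone H3 at lysine 27 is placed by Polycomb repressive complex 2, whose catalytic subunit is EZH1 or EZH2, and it is read by the CBX proteins of Polycomb repressive complex 1. Acetylation of the same residue marks active promoters and enhancers. A single lysine cannot be acetylated and trimethylated at once. In blood cell progenitors the trimethyl mark is known from silent genes of other lineages and from developmental regulators, often as broad domains and also as short stretches. PHF6 is a chromatin protein with PHD-type zinc fingers that is mutated in several leukemias.

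Overlap with PHF6 or H3K27ac was counted first here and clustering among the rest, so how many peaks each of them barred depends on that order. Of the 5395 autosomal H3K27me3 peaks, 1450 overlapped PHF6, 1159 overlapped H3K27ac and 1682 overlapped at least 1 of them. Of the 3713 that overlapped neither, 2657 (71.6%, 70.1 to 73.0) were isolated and 1056 had another H3K27me3 peak within 5 kb. Among the 1682 peaks with PHF6 or H3K27ac, 1107 (65.8%, 63.5 to 68.1) were isolated by the same distance. The edges of the rule separated peaks that differed little in distance or overlap. The closest next H3K27me3 peak of a member was 5057 bp away, and the farthest next peak of an unmarked peak left out was at 4990 bp. One member touched a PHF6 peak without sharing a base, and the next closest PHF6 gaps were 14 and 20 bp. The smallest gaps to H3K27ac were 8, 12 and 16 bp. On the other side of the line, isolated peaks were left out for sharing as few as 5 bp with a PHF6 peak or 4 bp with an H3K27ac peak.

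Most isolated unmarked peaks were low and narrow, and the whole autosomal H3K27me3 list was much alike. The summit height of the isolated unmarked peaks, the whole-number pileup of fragments deposited for each summit, ranged from 9 to 182. Its median was 15 (quartiles 13 and 20). The most frequent height was 12, found at 322 peaks, and 1392 peaks (52.4%) had a height of at most 15. The score deposited with each peak, 10 times the negative log10 of the peak caller's p-value, had a median of 93.4 (quartiles 69.7 and 170), and the smallest was 60.01. A score below 70 was found at 680 of the 2657 peaks (25.6%, 23.9 to 27.3), against 19.9% of all autosomal H3K27me3 peaks. Widths ran from 226 to 8168 bp with a median of 865 bp (quartiles 706 and 1135), and 88 peaks (3.31%) were at least 2 kb wide, against 6.84% of all autosomal H3K27me3 peaks. Over all 5395 autosomal H3K27me3 peaks the median height was 16 (quartiles 13 and 22) and the median width 940 bp (746.5 and 1275). Their share with a height of at most 15 was not computed. Together the isolated unmarked peaks covered 2.63 Mb.

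Set beside the other autosomal H3K27me3 peaks, these had the lowest medians of height, score and width. A score of at least 100 was reached by 1224 of the 2657 (46.1%, 44.2 to 48.0), against 54.6% of all 5395 autosomal H3K27me3 peaks. A height of 35 or more, the top decile of the list with ties, was reached by 177 (6.66%, 5.74 to 7.68), against 10.2% of all. The 1056 clustered unmarked peaks had a median height of 16, a median score of 103 (order-statistic interval 99.3 to 109) and a median width of 916.5 bp (889 to 939). For the isolated unmarked peaks the same intervals were 89.9 to 97.4 for the score and 851 to 878 bp for the width. The 1107 isolated peaks that did overlap PHF6 or H3K27ac had a median height of 18, a median score of 148 (138 to 162) and a median width of 1087 bp (1048 to 1125). An isolated unmarked peak was taller than an isolated marked one in 38.6% of pairs and taller than a clustered unmarked one in 45.1%, with ties split evenly. Wider peaks have more chance of overlapping another peak, so width was tied to the rule, and score and width rose together (Spearman 0.77 across the 2657 peaks, all from 1 library). These comparisons are therefore descriptions of what the rule left.

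**Figure D1:**
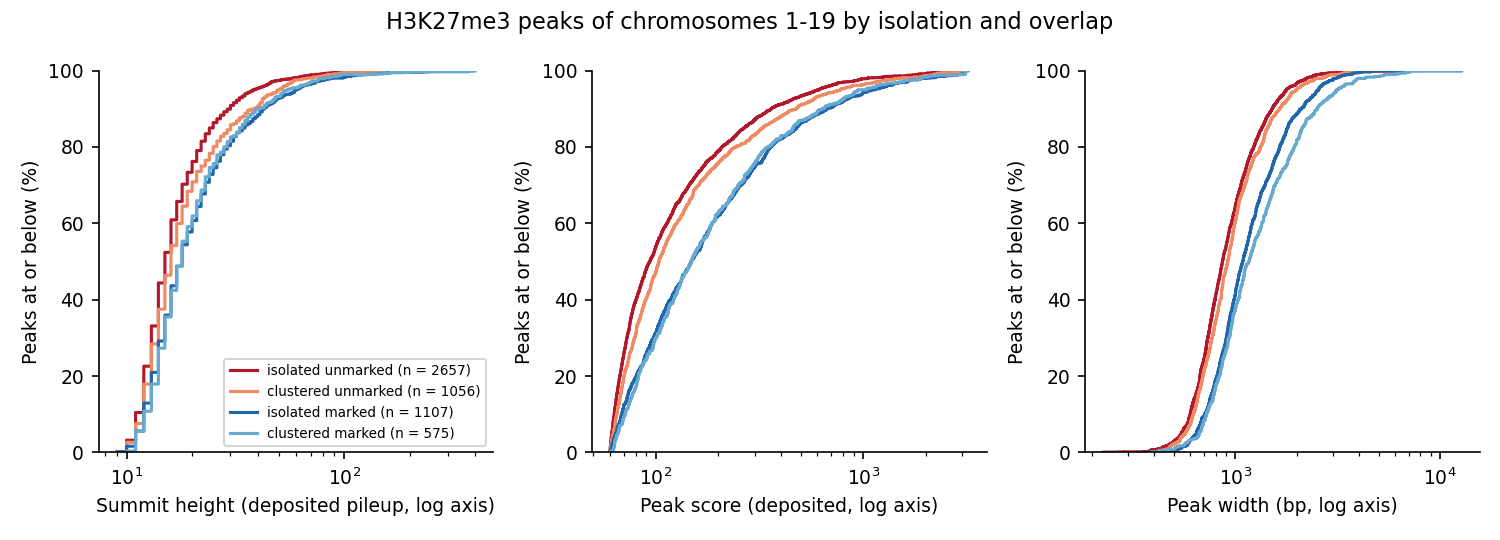
Cumulative share of autosomal H3K27me3 peaks (percent, vertical axes) by summit height, score and width (log axes), for 2657 isolated unmarked, 1056 clustered unmarked, 1107 isolated marked and 575 clustered marked peaks. The curve of isolated unmarked peaks lies to the left in each panel, with medians of 15, 93.4 and 865 bp.

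In 2004 of the 2657 (75.4%, 73.7 to 77.1) the summit lay between 33.3% and 66.7% of the way across the peak, against 71.0% (68.2 to 73.7) of clustered unmarked, 70.6% (67.8 to 73.2) of isolated marked and 72.6% of all autosomal H3K27me3 peaks. Height and score ranked the peaks alike on the whole (Spearman 0.70), while height and width were less closely related (0.43).

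A small group of the isolated unmarked peaks was tall, though tall peaks were less common here than in the whole list. The 95th percentile of height was 39, against 48 over all autosomal H3K27me3 peaks. It was 50 for clustered unmarked and 60 for isolated marked peaks. A height of at least 50 was found at 70 peaks (2.63%) and of at least 100 at 10 peaks, and 10 peaks reached the ceiling of the score near 3100. That ceiling was reached by 0.376% of the isolated unmarked peaks and by 0.556% of all autosomal H3K27me3 peaks. Shares at heights of 50 and 100 were not computed for the whole list. The tallest lay on chromosome 12 at 68159721 to 68161098 (mm9, band qC2), with a height of 182 and a score of 120. The sources used here do not say if the input DNA was the control behind these scores. No peak of any of the 3 lists was nearer to it than 160 kb. The next was on chromosome 6 at 70676058 to 70677145 (qC1), with a height of 179 and a score of 3100. The closest H3K27me3, H3K27ac and PHF6 peaks were 6.40, 7.68 and 8.58 kb from it. The third, on chromosome 3 at 56379204 to 56379836 (qC), was 633 bp wide with a height of 142 and a score of 166. The fifth, on chromosome 5 at 37051730 to 37052975 (qB3), had a height of 130 and a score of 709. Ranks 4, 6 and 8 belonged to a repeated arrangement on chromosome 4 that is described further on.

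Among the 10 tallest, 2 sat right beside acetylated, PHF6-bound chromatin without touching it. The peak on chromosome 1 at 135971592 to 135974372 (qE4; height 103, score 3100) was 2781 bp wide and lay 0.367 kb from a PHF6 peak and 0.376 kb from an H3K27ac peak. The peak on chromosome 11 at 50107584 to 50109788 (qB1.3; height 100, score 3100) was 2205 bp wide and lay 0.930 kb from H3K27ac and 1.401 kb from PHF6. The remaining one of the 10, on chromosome 6 at 69764192 to 69765488 (qC1; height 102, score 1619), was 10.6 kb from PHF6 and 131 kb from H3K27ac. It shared band qC1 with the second tallest.

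Some tall peaks had low scores. Of the 70 with a height of at least 50, the median score was 1292 and the range ran from 60.6 to 3122, and 7 had a score below 150. Besides the tallest one, these included chromosome 8 at 24205630 to 24206787 (qA2; height 98, score 75.7), chromosome 3 at 95847994 to 95849137 (qF2.1; height 78, score 121) and chromosome 19 at 23431741 to 23432453 (qB; height 77, score 99.3). These were singled out after their values were seen. The peaks at the score ceiling had heights between 68 and 179 with a median of 101, so the same pileup could go with a score near the threshold or at the ceiling.

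Distances to the other lists varied widely, and the distances that lists of this length would give at other positions were not computed. The nearest PHF6 peak lay at a median of 11.7 kb (quartiles 4.04 and 32.0) and the nearest H3K27ac peak at a median of 20.9 kb (6.64 and 66.8). The nearest other H3K27me3 peak was at a median of 106 kb (31.7 and 292). PHF6 was within 5 kb of 767 peaks (28.9%, 27.1 to 30.6) and within 50 kb of 2235 (84.1%, 82.7 to 85.5). H3K27ac was within 5 kb of 522 (19.6%, 18.2 to 21.2) and within 50 kb of 1831 (68.9%, 67.1 to 70.7). In 1495 cases (56.3%) the nearest peak of the 3 lists was a PHF6 peak, in 831 (31.3%) an H3K27ac peak and in 331 (12.5%) another H3K27me3 peak. The PHF6 list is the longest, with 76703 autosomal peaks against 31732 for H3K27ac and 5395 for H3K27me3. This order therefore also reflects list length. It reflects the rule as well, which barred other H3K27me3 peaks within 5 kb but PHF6 and H3K27ac peaks only by overlap. Clustered unmarked peaks were closer to both, at medians of 6.13 kb from PHF6 and 8.96 kb from H3K27ac. When PHF6 and H3K27ac peaks within 5 kb also barred a peak, the medians were 20.8 kb to PHF6 and 35.0 kb to H3K27ac, and with only PHF6 and H3K27ac peaks of a score of at least 100 the median to PHF6 was 18.0 kb.

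**Figure D2:**
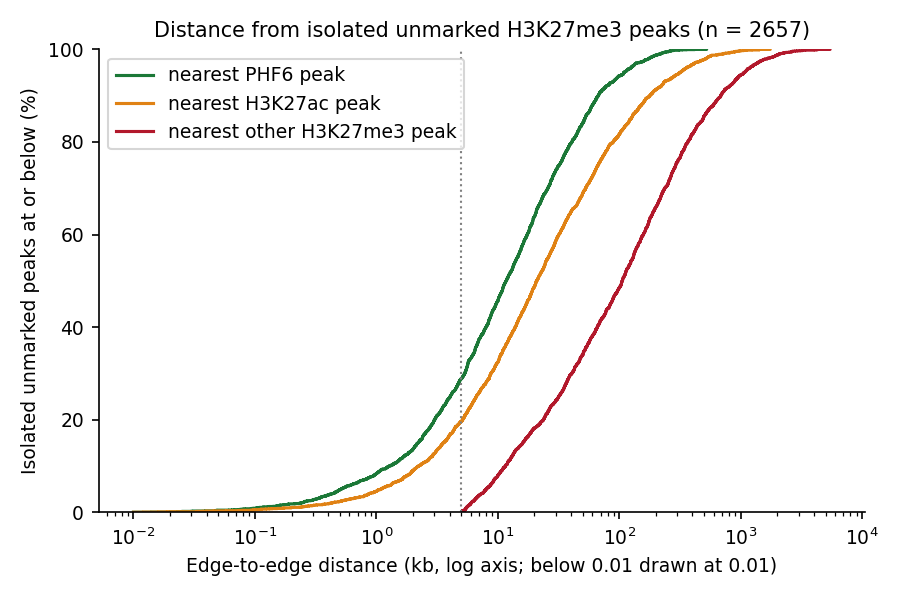
Cumulative share of the 2657 isolated unmarked H3K27me3 peaks (percent) by edge-to-edge distance in kb (log axis) to the nearest PHF6, H3K27ac and other H3K27me3 peak; the dotted line marks the 5 kb of the rule. PHF6 peaks were nearest and other H3K27me3 peaks farthest, at medians of 11.7, 20.9 and 106 kb. The lists differ in length, and the rule barred other H3K27me3 peaks within 5 kb but PHF6 and H3K27ac peaks only by overlap.

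H3K27ac lay within 50 kb on both sides of 850 peaks (32.0%, 30.2 to 33.8), on 1 side of 981 (36.9%) and on neither side of 826 (31.1%). A set of 125 peaks (4.70%, 3.93 to 5.58) had neither PHF6 nor H3K27ac within 100 kb. These shares were not computed for other H3K27me3 peaks. Of the clustered unmarked peaks, 81.25% had H3K27ac within 50 kb on at least 1 side, against 68.9% of the isolated unmarked ones. The 5 most remote peaks were all low and narrow. The most remote, on chromosome 6 at 139565331 to 139565823 (qG2), was 418 kb from the nearest peak of any list, and had a height of 16, a score of 68.4 and a width of 493 bp. The others were on chromosome 6 at 98281092 to 98281648 (qD3; 360 kb, height 12), chromosome 13 at 39487991 to 39488444 (qA3.3; 328 kb, height 19), chromosome 15 at 67413758 to 67414529 (qD2; 310 kb, height 12) and chromosome 16 at 39460894 to 39461428 (qB4; 279 kb, height 12).

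Peaks 20 kb or more from acetylation had lower median widths and scores than nearer ones. The 122 peaks within 1 kb of H3K27ac had a median width of 993 bp (order-statistic interval 903 to 1072) and a median score of 114 (98.3 to 154). At 1 to 5 kb, 400 peaks had medians of 907.5 bp (872 to 943) and 102 (95.6 to 111). At 5 to 20 kb, 775 peaks had medians of 924 bp (900 to 960) and 104 (98.0 to 112), so there was no steady fall up to 20 kb. At 20 to 100 kb, 874 peaks had medians of 835.5 bp (810 to 860) and 89.0 (85.3 to 92.3). At 100 kb or more, 486 peaks had medians of 779.5 bp (752 to 807) and 80.0 (76.6 to 85.2), and these intervals do not meet those of the nearer classes up to 20 kb. The share with a score of at least 100 was 56.6% (47.3 to 65.5) in the nearest class and 36.6% (32.3 to 41.1) in the farthest. Median height stayed at 15 or 16 in all 5 classes of distance to H3K27ac. In classes of distance to PHF6 the medians ran from 929 bp and 103 in the nearest to 783 bp and 80.0 in the farthest. The distances to PHF6 and to H3K27ac went together (Spearman 0.63). The rank correlation of width with distance to H3K27ac was weak (-0.19), and that with distance to PHF6 was weaker still (-0.09). Isolation from other H3K27me3 peaks went with little change: 484 peaks with the next one at 5 to 20 kb had a median score of 94.8, and 1367 with the next one at 100 kb or more had 92.7.

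**Figure D3:**
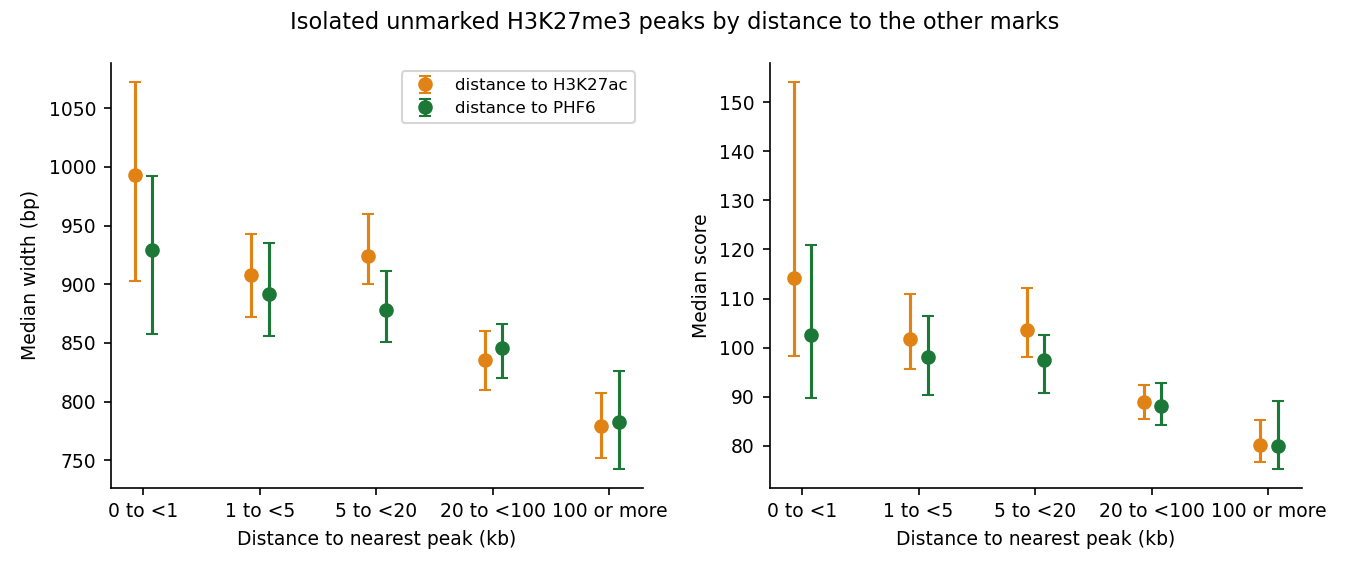
Median width (bp, left) and median score (right) of isolated unmarked H3K27me3 peaks in 5 classes of distance (kb) to the nearest H3K27ac or PHF6 peak; bars are 95% order-statistic intervals. Both medians were lowest at 100 kb or more from either mark, 779.5 bp and 80.0 for H3K27ac.

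The acetylated sites closest to these peaks were taller in the median than the whole H3K27ac list, with a wide spread in both. The 516 H3K27ac peaks that were nearest to a member and within 5 kb of it had a median H3K27ac height of 132.5 (95 to 175, quartiles 25 and 313). For all 31732 autosomal H3K27ac peaks the median was 35 (34 to 36, quartiles 20 and 173). For the 289 H3K27ac peaks likewise beside clustered unmarked peaks the median was 66 (45 to 95). PHF6 was present at 401 of the 516 (77.7%, 73.9 to 81.2) and at 255 of the 289 (88.2%, 83.9 to 91.7), against 72.2% (71.7 to 72.7) of all autosomal H3K27ac peaks. Seen from PHF6, 348 of the 760 nearest PHF6 peaks within 5 kb of a member were acetylated (45.8%, 42.2 to 49.4), against 30.3% (29.9 to 30.6) of all autosomal PHF6 peaks. Beside clustered unmarked peaks this share was higher, 204 of 358 (57.0%, 51.7 to 62.2). The median PHF6 height was 25 (24 to 26) beside isolated unmarked peaks, 28 (27 to 30) beside clustered unmarked peaks and 22 over all autosomal PHF6 peaks. Heights are compared here within 1 antibody only, since the depth of each library is unknown.

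Over longer distances, 1290 of the isolated unmarked peaks (48.6%, 46.6 to 50.5) had another H3K27me3 peak within 100 kb. This share was not computed for isolated marked peaks, and clustered peaks all have such a neighbour by definition. The nearest H3K27me3 neighbour was itself an isolated unmarked peak for 1773 of the 2657 (66.7%, 64.9 to 68.5). Such peaks make up 49.2% of the autosomal list, in which clustered peaks count several times per place. The nearest neighbour was an isolated marked peak for 534, a clustered unmarked peak for 254 and a clustered marked peak for 96. Joined at gaps of up to 100 kb, a distance chosen after seeing the data, the peaks fell into 2066 groups. Of these, 1666 were single peaks, 278 were pairs, 109 held 3 or 4 peaks, and 13 were strings of at least 5 that together held 79 peaks. The string with the most peaks spanned 0.249 Mb of chromosome 9, from 106889168 to 107138016 (qF1), with 10 isolated unmarked peaks of heights 12 to 20, at a median gap of 21.7 kb. That span held 12 H3K27me3 peaks in all, 7 PHF6 peaks and no H3K27ac peak. The next ran over 0.420 Mb of chromosome 1, from 162298934 to 162718803 (qH2.1), with 9 members of heights 11 to 22 and scores of 60.2 to 125, no other H3K27me3 peak, no H3K27ac peak and 1 PHF6 peak. Strings of 6 on chromosome 1 at 159084444 to 159232020 (qH1) and chromosome 8 at 130942467 to 131007262 (qE2) held no peak of either other list. On chromosome 17 a string of 7 from 80332823 to 80470239 (qE3) lay among 4 H3K27ac and 8 PHF6 peaks.

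In the strings of at least 5 the median height was 14 (13 to 16) and the median score 85.0 (76.1 to 97.1), against 15 (15 to 16) and 94.6 (89.9 to 98.9) for the 1666 peaks that stayed single at 100 kb; members in pairs and in groups of 3 or 4 were not compared. None of the 79 lay in the darkest class of cytogenetic bands, which are gene-poor, while 437 of the 1666 single ones did (26.2%, 24.1 to 28.4). The 79 come from 13 places, so they are not 79 independent observations, and no interval is given for their share. Whether the strings differ from the single peaks in this was not tested.

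A regular arrangement was found in band qA5 of chromosome 4, between 41941285 and 42787683, where 21 H3K27me3 peaks, 4 PHF6 peaks and no H3K27ac peak were called. It holds 5 tall isolated unmarked peaks, singled out after their values were seen, at 41985389 to 41986776, 42230895 to 42232488, 42391638 to 42393325, 42625433 to 42627083 and 42786204 to 42787683. In that order their heights were 82, 102, 105, 81 and 132 and their scores 2001, 3118, 3122, 1838 and 3100. Their widths stayed between 1388 and 1688 bp, and the nearest PHF6 peaks were 57.9 to 118 kb away. The next H3K27me3 peak was 15.853 to 16.107 kb away, edge to edge. With an isolation gap of 20 kb none of the 5 would count as isolated. Each tall peak had a pair of shorter H3K27me3 peaks on 1 side at nearly the same distance. The nearer of the pair had its summit 16.718 to 16.917 kb from that of the tall peak, and the farther one 18.345 to 18.526 kb, in all 5 units. The pair lay to the right of the tall peak in 3 units and to the left in 2. On the far side, 3 of the 5 units had a second pair, at -43.118 to -43.096 kb and -44.719 to -44.671 kb, where the minus sign marks the side away from the first pair. The 16 companions were clustered unmarked peaks, with heights from 17 to 46. Summits of the tall peaks in units 2 and 3 were 160.251 kb apart, and in units 4 and 5 160.085 kb. The spacing between units was not constant, since units 1 and 2 were 245.581 kb apart and units 3 and 4 234.319 kb.

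**Figure D4:**
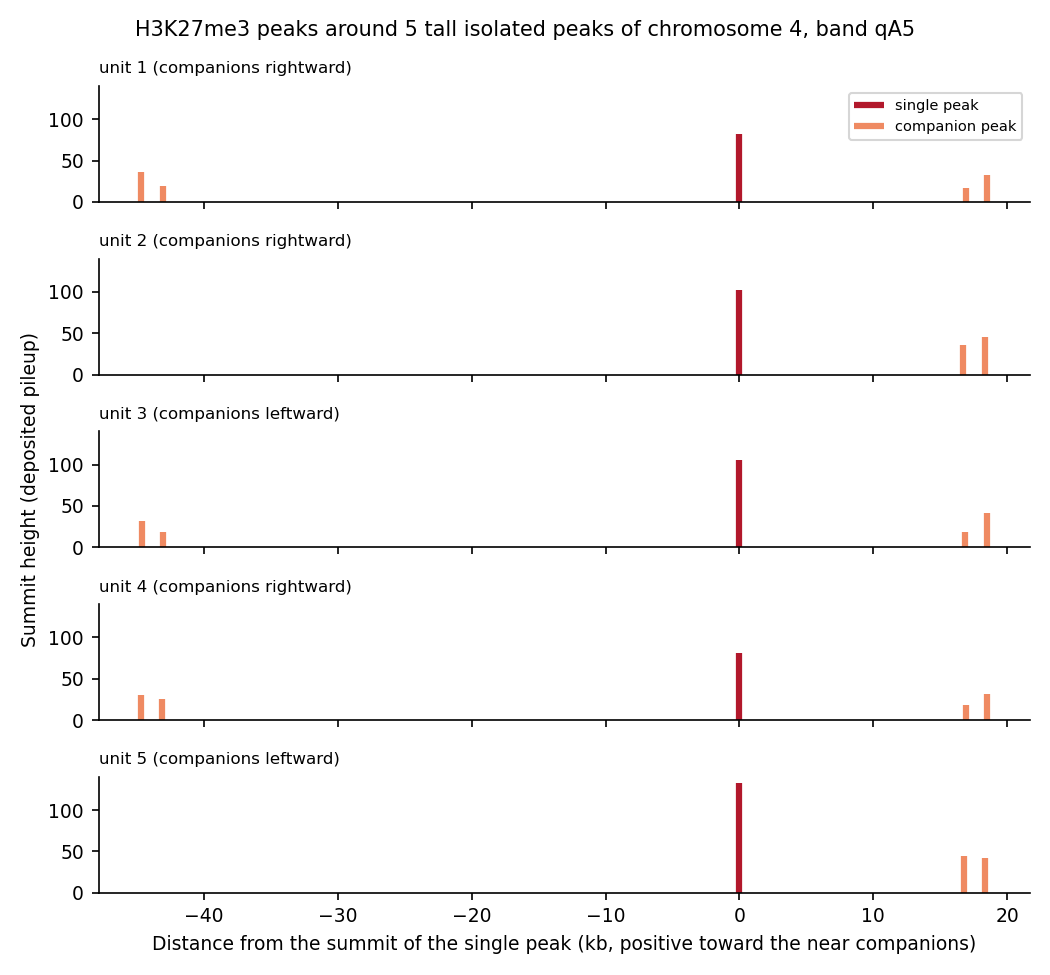
Summit height of each H3K27me3 peak within 50 kb of 5 tall isolated unmarked peaks in band qA5 of chromosome 4, against distance in kb from the tall peak's summit, turned so that the near companions lie to the right. The near pair sits at 16.718 to 16.917 and 18.345 to 18.526 kb in all 5 units, and a far pair is seen in units 1, 3 and 4.

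The widest isolated unmarked peaks were also gathered in 1 place. Of 7 wider than 5 kb, 5 lay within 251 kb of chromosome 5, from 14958609 to 15210047 (qA1 and qA2), where no other H3K27me3 peak, no PHF6 peak and no H3K27ac peak was called. Their widths were 5362 to 8168 bp, their heights 34 to 51 and their scores 195 to 294. The widest, at 15133200 to 15141367, had a height of 34 and was 5.06 kb from the second widest, at 15146425 to 15153304, so this pair only just passed the rule. The other 3 were at 15017528 to 15024251 (6724 bp, height 43), 15203682 to 15210047 (6366 bp, height 51) and 14958609 to 14963970 (5362 bp, height 41). For comparison, the wide peak on chromosome 3 at 55270240 to 55275276 (qC) had a height of 40 and a score of 2361. The last of the 7 lay on chromosome 11 at 2999850 to 3005230 (qA1), with a height of 97 and a score of 243. On each of the 19 autosomes the first 3 Mb held no summit of any list, so this peak sat at the start of the part that held summits. The input library was not used at these sites.

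Across chromosomes, isolated unmarked peaks averaged 1.10 per Mb (1.06 to 1.14), leaving out that first stretch. Chromosome 11 (1.81 per Mb, 1.58 to 2.07) and chromosome 19 (1.73, 1.41 to 2.10) were densest. Chromosome 12 (0.727, 0.582 to 0.898) and chromosome 10 (0.756, 0.612 to 0.923) were sparsest. Over the 19 autosomes the density went with that of H3K27ac (Pearson 0.61, Spearman 0.40) and less with that of PHF6 (0.47 and 0.32). Chromosomes differ in gene content and sequence, which all 3 lists share. As a share of each chromosome's H3K27me3 list, the peaks made up between 36.3% (chromosome 17) and 62.1% (chromosome 16), and 49.2% over all autosomes. Chromosome 11 also had the most H3K27me3 peaks of any kind, 485, and the isolated unmarked ones made up 44.3% of them (39.9 to 48.9). This share was 55.2% on chromosome 19, 43.9% on chromosome 12 and 43.6% on chromosome 10.

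**Figure D5:**
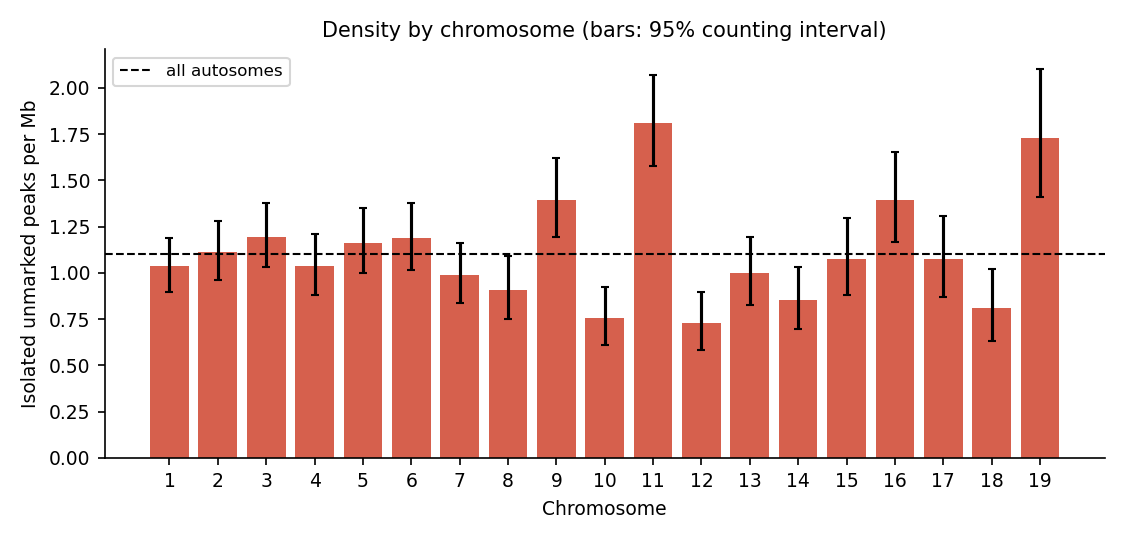
Isolated unmarked H3K27me3 peaks per Mb on each autosome, first 3 Mb left out; error bars are 95% counting intervals and the dashed line is the value over all autosomes, 1.10 per Mb. Chromosomes 9, 11, 16 and 19 lie above the line and chromosomes 8, 10, 12, 14 and 18 below it, beyond their intervals.

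Windows of 1 Mb with more isolated unmarked peaks also held more H3K27ac and PHF6 summits. Such counts were not made for other H3K27me3 peaks, so whether this is particular to the isolated unmarked ones was not tested. Of 2406 windows, 1333 (55.4%) held at least 1 isolated unmarked peak. The 1073 windows with none had a median of 3 H3K27ac and 10 PHF6 summits. The 666 windows with 1 had 7 and 16, the 180 with 3 had 15.5 and 28, and the 35 with 6 or more had 23 and 36. Of the 222 windows without an H3K27ac summit, 50 held an isolated unmarked peak (22.5%), against 1283 of the 2184 others (58.7%). The densest window was on chromosome 3 between 59 and 60 Mb, with 11 of these peaks beside 8 H3K27ac and 12 PHF6 summits.

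By band, the isolated and the clustered unmarked peaks had nearly the same share in the darkest class. The darkest bands held 644 of the 2657 (24.2%, 22.6 to 25.9), against 21.8% of all autosomal H3K27me3 peaks and 29.6% of autosomal bases. Of the 1056 clustered unmarked peaks they held 258 (24.4%, 21.9 to 27.1). Per Mb, the density in the darkest bands was 0.776 times that in light bands (exact interval 0.704 to 0.854). For comparison, this ratio came to 0.663 (0.618 to 0.711) in all autosomal H3K27me3 peaks, 0.557 (0.541 to 0.573) in the H3K27ac list and 0.492 (0.482 to 0.501) in the PHF6 list. Intermediate bands were as dense as light ones, at 1.21 per Mb in both intermediate classes against 1.16. The rule bars overlap with PHF6 and H3K27ac peaks, which were denser in light bands, and its part in this order was not tested.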

How the data were processed

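Peak and summit lists of the 3 ChIP libraries were used with the authors' values as deposited. Per the submitters' processing notes, Bowtie2, SAMtools and MACS 1.4.0 were used with mouse build mm9; their options are not given in the sources used here. The deposited peak score is a score of 10 times the negative log10 p-value, with a smallest value of 60, and the deposited summit signal is a whole-number pileup that reached 400 in each list. No list gives read totals, so depth is unknown. By their names, the lists for PHF6 and H3K27ac were called without local background; the name of the H3K27me3 list has no such mark.

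Members were found by the rule (overlap of at least 1 bp bars a peak; gaps edge to edge; 1-based positions). Medians carry 95% order-statistic intervals, shares exact (Clopper-Pearson) and densities exact Poisson intervals. Regions named are the 10 tallest, the 5 with the highest score, the 5 widest and the 5 most remote, plus those said to be chosen after seeing values. Bands came from circlize 0.4.16 (R 4.3.3); other steps used scipy 1.17.1, pandas 2.3.3, numpy 2.4.6 and matplotlib 3.10.9 under Python 3.11.15. The routines were tested on simulated lists. The gene and sequence tables at hand are for another build, so genes and sequences were not used here. The regions and summaries were chosen with earlier results of these data known.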

Additional observations from a re-analysis of the deposited data

Results flagged for a closer look

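Chromosomes X and Y lie outside the rule used above, and peaks that met its other conditions were found on both. Chromosome X held 115 such peaks out of 198 H3K27me3 peaks (58.1%, exact interval 50.9 to 65.0), or 0.703 per Mb (0.580 to 0.844). Their median height was 20 (18 to 22) and the nearest H3K27ac peak was at a median of 134 kb (72.1 to 175). Chromosome Y held 10 out of 23 (43.5%, 23.2 to 65.5), with a median height of 39.5 (15 to 67). Whether these values differ from those of the autosomes was not tested.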

How the results depend on the processing

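The 7 summary values were recomputed under 9 alternatives, and 36 of the 63 recomputed values stayed within the counting interval (for the number of peaks, within 1.5 times). The number, 2657, became 1224 when only peaks with a score of at least 100 were kept. The share of autosomal H3K27me3 peaks, 49.2%, was 58.5% with an isolation gap of 1 kb, 40.3% with 20 kb, 52.5% when an overlap needed 50% of the shorter peak, 52.46% by summit, 33.1% when PHF6 or H3K27ac within 5 kb also barred a peak, 41.5% for scores from 100 up, 52.2% with that score asked of the other 2 lists, and 51.2% without the top decile of height. Median height, 15, was 20 at a score of at least 100. Median width, 865 bp, was 845 bp with the 5 kb bar, 1145 bp at that score and 845 bp without the top decile. The median distance to H3K27ac, 20.9 kb, was 18.8 and 23.0 kb with gaps of 1 and 20 kb, 18.9 kb (18.886 and 18.921) under the 50% and summit rules, 35.0 kb with the 5 kb bar, 16.7 kb at that score and 24.9 kb with the score asked of the other lists. The median distance to PHF6, 11.7 kb, was 10.9 kb with a gap of 1 kb, 10.3 and 10.4 kb under the 50% and summit rules, 20.8 kb with the 5 kb bar, 10.6 kb at that score and 18.0 kb with the score asked of the other lists. The 5 kb bar and the shorter PHF6 and H3K27ac lists lengthen distances by construction. The share in the darkest bands, 24.2%, was 26.5% with the 5 kb bar. No paired analysis was possible because the series has a single library for each antibody.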
